A study of Mus musculus with 6 samples.

Results

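Lipolysis in fat cells is set by G protein-coupled receptors on the cell surface, and transcripts of 9 of these receptor genes are described here in cultured adipocytes with and without deletion of Tcf7l2. The genes are Adrb1, Adrb3, Adra2a, Adora1, Hcar1, Hcar2, Ffar4, Oxtr and Ptger3. They were picked by name from a table of 49671 genes, with earlier knockout-against-control results of these same libraries in view, so their differences between the groups are given as a description and support nothing. All 9 were listed in the table, and 8 passed the filter on low counts and were among the 14946 genes tested. Adra2a did not pass.

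Lipolysis is the stepwise release of fatty acids from stored triglyceride by the lipases ATGL and HSL. Receptors coupled to the stimulatory G protein Gs raise cAMP, which activates protein kinase A and so the lipases. Receptors coupled to the inhibitory G protein Gi lower cAMP and restrain fat breakdown. Receptors coupled to Gq act mainly through phospholipase C and calcium. Of the 9 genes, Adrb1 and Adrb3 encode beta-adrenergic receptors, which couple to Gs and respond to noradrenaline. Adra2a, Adora1, Hcar1, Hcar2 and Ptger3 encode Gi-coupled receptors for catecholamines, adenosine, lactate, beta-hydroxybutyrate and prostaglandin E2. Ffar4 encodes a receptor for long-chain fatty acids, also known as GPR120, and Oxtr the oxytocin receptor; both signal largely through Gq.

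Bulk RNA-seq (all cells of a culture together) was made from 6 libraries of C57BL/6 inguinal preadipocytes that had been differentiated in culture until day 8. The mice were 3 months old and carried floxed Tcf7l2 (Tcf7l2 F/F). Stromal cells sorted as CD34+, Sca1+ and CD29+, without CD31, CD45 or Ter-119, were immortalised with the SV40 large T antigen and given CreERT2 by retrovirus, a Cre recombinase that 4-hydroxytamoxifen switches on. Both groups carry the floxed gene, the large T antigen and CreERT2. Control cells (3 libraries, genotype label wild type) received ethanol, and knockout cells (3 libraries, genotype label Tcf7l2 knock out) received 4-hydroxytamoxifen, each for 24 h and 2 days ahead of differentiation. Differentiation used dexamethasone, isobutylmethylxanthine (0.5 mM) and insulin. The labels add an agent at 5 nM with a code number that climbs by 1 per library, so it cannot be told apart from the groups. Deletion and 4-hydroxytamoxifen cannot be told apart either. The labels leave unsaid whether the line is 1 clone and whether each library had its own culture. The p-values thus rest on variation among libraries that could be purely technical.

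The libraries held 26621293 to 33484764 counts. Tcf7l2 was at 7.71, 6.13 and 9.11 CPM (counts relative to the TMM-adjusted library total) in control libraries and at 5.65, 6.85 and 5.86 CPM in knockout libraries. The groups overlapped, and with a log2 fold change of -0.32 (SE 0.14) Tcf7l2 missed the threshold (edgeR adjusted p = 0.125). Which exons were floxed is not stated, and counts over the whole gene therefore do not check the deletion. Control replicate 3 and knockout replicate 2 stood apart from the other 4 libraries on the second principal component (15.9% of the variance). Leaving out both ended 1 call, that of Mc2r, among the receptors and the list genes named by the rule given below. Adipocyte markers were abundant in both groups. The 8 adipocyte markers summed to between 7767 and 8020 CPM in control and between 10159 and 12342 CPM in knockout libraries. Fabp4 and Lpl, at mean levels of 4391 and 2066 CPM in control libraries, made up most of the control sum. The preadipocyte marker Pdgfra (1247 CPM) stood above Adipoq (584 CPM) in control libraries. Sums of the markers of other cells were lower. The 6 macrophage markers summed to at most 5.71 CPM, with Adgre1 at 0 everywhere. The 4 nerve markers summed to at most 9.95 CPM with Sox10 at 0. The 4 endothelial markers summed to at least 23.1 CPM in control and to between 26.6 and 28.1 CPM in knockout libraries, without overlap and above Oxtr, nearly all of it Kdr and Tek. Kdr was called higher (13.6 ± 1.02 and 17.6 ± 0.756 CPM; SD, n = 3; edgeR adjusted p = 0.00363) and Tek was not called (10.2 ± 0.723 and 9.35 ± 0.148 CPM), while Cdh5 had at most 1 count and Pecam1 at most 6 counts per library. The 7 preadipocyte markers summed to between 3243 and 3406 CPM in control and between 3288 and 3445 CPM in knockout libraries. Within these sums the markers went both ways. Ly6a was higher in every knockout library (671 ± 115 and 918 ± 86.1 CPM) but not called. Pdgfra (1247 and 1135 CPM), Itgb1 (1111 and 1031 CPM) and Thy1 (150 and 136 CPM) were lower in every knockout library. Of these only Thy1 was called (edgeR adjusted p = 0.0450), and Cd34, Dpp4 and Pi16 overlapped.

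Adrb3 and Adrb1 were both higher in knockout cells. Adrb3, the main lipolytic catecholamine receptor of rodent fat (GRCm38 chromosome 8, 27225776 to 27250616, minus strand), was at 18.1, 19.3 and 19.4 CPM in control libraries and 33.5, 35.4 and 32.7 CPM in knockout libraries. The lowest knockout library lay well above the highest control library, and the fitted difference was 1.79-fold (log2 fold change 0.84, SE 0.064). Opposite Adrb3 lies the antisense gene Gm45470, which covers 24.9% of its exonic bases and stood at 1.48 and 2.64 CPM in the groups. Adrb1 (chromosome 19, 56722199 to 56733113, plus strand), a receptor better known from heart, was scarce, with 22, 28 and 29 counts in control and 38, 51 and 53 in knockout libraries. In CPM these were 0.655, 0.992 and 1.09 against 1.27, 1.62 and 1.98, a 1.8-fold difference with a much wider error (log2 fold change 0.84, SE 0.24). The groups did not overlap, yet Adrb1 was not called without control replicate 1 (log2 fold change 0.63, SE 0.25) or without knockout replicate 3 (0.69, SE 0.26).

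The 5 Gi-coupled receptors did not move as a block. Adora1, whose A1 receptor binds adenosine and restrains lipolysis (chromosome 1, 134199223 to 134235431, minus strand), was at 8.64, 7.83 and 11.3 CPM in control and 17.9, 18.1 and 17.4 CPM in knockout libraries. Knockout libraries lay close together above all controls, of which replicate 3 was highest, and the fitted difference was 1.93-fold (log2 fold change 0.95, SE 0.11). Its exons overlap Mybph on the other strand over 20.1% of their bases, and Mybph was at only 0.149 and 0.0467 CPM.

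The neighbouring genes Hcar1 and Hcar2 on chromosome 5 (123876736 to 123880020 and 123863570 to 123865499, both minus strand) encode the lactate receptor GPR81 and the receptor for beta-hydroxybutyrate and niacin. Hcar1 was at 15.2, 15.0 and 17.0 CPM in control and 19.3, 18.7 and 19.6 CPM in knockout libraries. The groups were separate by a small step of 1.22-fold (log2 fold change 0.29, SE 0.075). Leaving out either of control replicates 1 and 2, or knockout replicate 3, ended the call of Hcar1 (log2 fold changes of 0.26, 0.25 and 0.27). Hcar2 was at 6.1, 4.96 and 4.93 CPM against 6.79, 5.96 and 7.36 CPM, so that control replicate 1 lay above knockout replicate 2. Its fitted difference was of like size but less precise (log2 fold change 0.32, SE 0.12) and was not called, except without knockout replicate 2 (0.40, SE 0.13). No stretch of 50 bases was shared between the annotated transcripts of Hcar1 or Hcar2 and those of any other gene.

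Ptger3, the EP3 receptor for prostaglandin E2 (chromosome 3, 157566892 to 157645888, plus strand), barely differed. Control libraries were at 13.2, 12.9 and 13.3 CPM and knockout libraries at 14.7, 13.5 and 13.0 CPM, with overlap (log2 fold change 0.065, SE 0.08). Adra2a, the alpha-2A adrenergic receptor (chromosome 19, 54044151 to 54048982, plus strand), had 10, 9 and 7 counts in control and 6, 6 and 7 in knockout libraries. Its summed counts of 26 and 19 gave a knockout-to-control ratio of 0.729, with an exact (Clopper-Pearson) 95% interval from 0.381 to 1.37 that covers counting error only. In CPM it was at 0.298, 0.319 and 0.264 in control and 0.201, 0.191 and 0.261 in knockout libraries, so the groups just failed to overlap, with knockout lower. At these counts the interval of the ratio includes 1, and a difference in Adra2a was not detectable at this depth.

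Ffar4 and Oxtr, the Gq-linked receptors, were both higher in knockout cells. Ffar4 (chromosome 19, 38097071 to 38114263, plus strand) was at 8.28, 6.34 and 8.44 CPM in control and 15.0, 12.5 and 15.1 CPM in knockout libraries. The lowest libraries of the groups were control replicate 2 and knockout replicate 2, which the labels do not pair. The groups did not overlap, and the fitted difference was 1.84-fold (log2 fold change 0.88, SE 0.12). Oxtr (chromosome 6, 112473683 to 112489943, minus strand) had the largest fitted difference of the 8 tested receptors. It was at 1.82, 1.66 and 1.58 CPM in control libraries and at 4.38, 4.75 and 4.59 CPM in knockout libraries. Spread within each group was small beside the gap, which the fit put at 2.69-fold (log2 fold change 1.43, SE 0.13). Across the alternative fits the log2 fold change of Oxtr ran from 1.36 to 1.49.

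**Figure D1:**
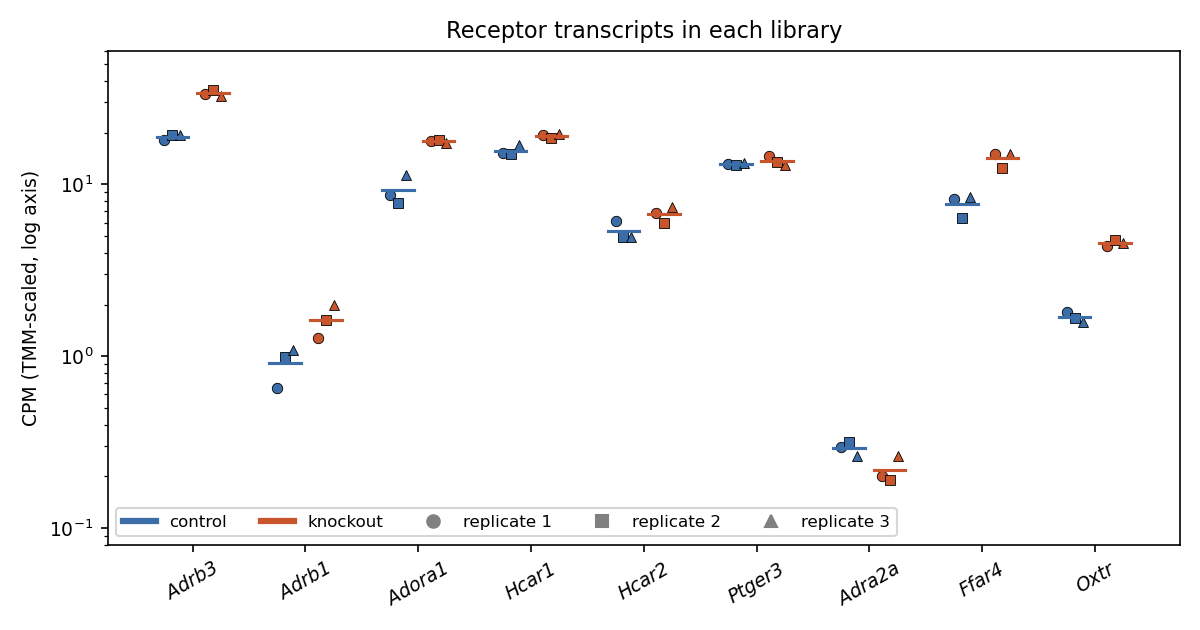
CPM on a log axis of the 9 receptor genes in each library, with control libraries in blue, knockout libraries in orange, a marker shape per replicate number and a bar at each group's mean. Oxtr, Adrb3, Adora1 and Ffar4 show a wide gap between groups, Ptger3 and Hcar2 overlap, and Adra2a lies below all others at 0.293 (control mean) and 0.218 CPM (knockout mean).

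Upstream sequence is shown for 3 receptor genes, Oxtr and Ffar4, which were both higher, and Ptger3, which was not called. Promoters from RefSeq (GRCm38.p6) were matched for 7 of the 9 genes, not for Adrb3 and Hcar2. Each run is written 5′ to 3′ on the gene's own strand and ends at the base ahead of the first annotated exon (RefSeq or GENCODE, whichever starts first), with each CG dinucleotide in capitals.
Oxtr (chr6:112489944-112490075, minus strand): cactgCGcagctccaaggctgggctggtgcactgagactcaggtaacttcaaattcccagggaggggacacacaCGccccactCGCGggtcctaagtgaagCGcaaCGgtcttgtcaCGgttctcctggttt
Ffar4 (chr19:38096829-38097070, plus strand): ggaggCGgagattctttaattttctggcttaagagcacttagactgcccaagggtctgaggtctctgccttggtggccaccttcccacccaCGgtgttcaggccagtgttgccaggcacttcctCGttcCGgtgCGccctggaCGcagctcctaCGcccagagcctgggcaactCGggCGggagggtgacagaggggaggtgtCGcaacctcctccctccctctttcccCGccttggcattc
Ptger3 (chr3:157566626-157566875, plus strand): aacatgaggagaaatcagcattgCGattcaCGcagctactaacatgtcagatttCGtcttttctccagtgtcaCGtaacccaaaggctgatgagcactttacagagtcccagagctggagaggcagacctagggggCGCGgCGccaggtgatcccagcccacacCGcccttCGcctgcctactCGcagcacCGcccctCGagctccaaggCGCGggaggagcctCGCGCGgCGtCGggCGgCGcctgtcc
Over the full 250 bases ahead of the RefSeq start, CG occurred 12 times for Oxtr, 11 times for Ffar4 and 21 times for Ptger3. The median over all 32851 promoters of that length was 6, with quartiles of 2 and 16. Oxtr and Ffar4 thus lay between the quartiles, and Ptger3 lay above them. This did not follow the calls: among the promoters not printed, those of Adrb1 (24) and Adora1 (19 and 18), both called higher, also lay above the quartiles. The promoter of the untested Adra2a (22) lay above them too, and that of Hcar1 (6) lay between them. GC content was 61.6%, 61.2% and 62% for Oxtr, Ffar4 and Ptger3, with a median of 52.4% over all promoters.

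Short motifs were searched on both strands of the same 250 bases. The TCF/LEF cores CTTTGA and CTTTGAT, the second of which contains the first, occurred in 13.8% and 3.21% of all promoters and in none of the 8 promoters of the 7 receptor genes. The nuclear receptor half-site AGGTCA, held by 14% of all promoters, occurred in that of Oxtr alone, at bases -98 to -93 from the RefSeq start and within the first exon of the GENCODE model. It is in capitals in this window of 26 bases.
Oxtr half-site (chr6:112489908-112489933, minus strand): gaggacaggcAGGTCAgtgccagagt
The half-site TGACG of cAMP response elements (17.8% of all promoters) occurred in those of Adra2a and Adrb1, and the C/EBP core TTNCNNAA (36.8%) in that of Adra2a. These matches describe letters only.

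In the fit across all genes, a gene counted as called when edgeR's adjusted p was under 0.05. Of the 8 tested receptor genes 6 were called, all of them higher in knockout cells, beside 22.4% of all tested genes called in either direction, 11.9% called higher and 10.5% called lower. The same 6 genes (Adrb1, Adrb3, Adora1, Hcar1, Ffar4 and Oxtr) had every knockout library above every control library, which held for 18.5% of all tested genes. Because the genes were picked with this contrast known, nothing is read from these counts. Their median log2 fold change was 0.84, where the median of all 14946 tested genes was -0.0017. Seen by coupling, both Gs genes and both Gq-linked genes were called higher, while of the Gi genes Adora1 and Hcar1 were called, Hcar2 and Ptger3 were not, and Adra2a was not tested.

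Levels were compared between genes per kilobase of annotated exon (CPM per kb), since longer transcripts collect more reads. In control cells Adrb3 (5.61 ± 0.213 CPM per kb; SD, n = 3), Ffar4 (5.49 ± 0.833) and Hcar1 (4.79 ± 0.338) led, and neighbours in this order overlapped in range. Hcar2 followed at 2.76 ± 0.346, Ptger3 at 2.31 ± 0.0324 and Adora1 at 1.6 ± 0.314 CPM per kb, each apart from the next. Oxtr was far lower at 0.352 ± 0.0248 CPM per kb, then Adrb1 at 0.27 ± 0.0677 and Adra2a at 0.0607 ± 0.00576. In knockout cells Ffar4 (10.1 ± 1.07) and Adrb3 (10.0 ± 0.408 CPM per kb) changed places within their overlapping ranges. Per kilobase of the longest transcript they did not: Adrb3 led in both groups with ranges apart, at 12.1 ± 0.493 against 10.1 ± 1.07 CPM per kb in knockout cells. Adora1 at 3.07 ± 0.0583 stood above Ptger3 at 2.41 ± 0.162 CPM per kb, the reverse of their control order, but this held for 1 measure of length only. Per kilobase of the longest transcript, Adora1 was at 3.58 ± 0.0679 and Ptger3 at 3.84 ± 0.258 CPM per kb in knockout cells, with overlapping ranges. Oxtr at 0.955 ± 0.0382 CPM per kb kept the 7th place in both groups. On the same longest-transcript scale, Ptger3 in control cells came to 3.67 CPM per kb, above Hcar2 at 2.76.

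Adipocyte markers themselves were higher in knockout libraries, so each receptor was also set against them within its library. In bulk RNA, more cells of a type and more RNA per cell cannot be told apart. Of 8 adipocyte markers (Adipoq, Fabp4, Pparg, Cebpa, Plin1, Cidec, Lpl and Slc2a4) 7 were called higher, with a median log2 fold change of 0.70, and their mean log2 CPM was 8.45 ± 0.039 in control and 9.02 ± 0.05 in knockout libraries (SD, n = 3). Oxtr relative to this mean was at -7.57, -7.61 and -7.75 log2 units in control and at -6.92, -6.71 and -6.79 in knockout libraries. That is a difference of 0.83 with no overlap, on a log2 CPM scale with a prior count of 2, which understates change in low genes. Adora1 (difference 0.38), Ffar4 (0.31) and Adrb3 (0.27) were also higher relative to the marker mean in every knockout library. Adrb1 (0.22) overlapped between the groups. The result depends on the markers averaged. Their own log2 CPM differences were 0.81 (Slc2a4), 0.75 (Adipoq, Plin1 and Cidec), 0.64 (Fabp4), 0.51 (Cebpa), 0.32 (Pparg) and 0.030 (Lpl). The fitted log2 fold changes of Adrb3 (0.84) and Ffar4 (0.88) were thus close to those of the markers that differed most.

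Ptger3 and Hcar1 went the other way on this relative scale. Ptger3 minus the marker mean was at -4.75, -4.71 and -4.73 in control and at -5.19, -5.22 and -5.30 in knockout libraries, with no overlap (difference -0.51). Hcar1 was lower by 0.28 with no overlap (difference -0.28), although its own CPM was higher. Hcar2 differed by -0.24 with overlap. Brown fat markers also moved with the groups: of 6 listed, 5 were tested and 4 (Cidea, Cox8b, Ppargc1a and Prdm16) were called higher, Ucp1 was not called, and their sum was between 39.3 and 62.7 CPM in control and between 82.9 and 113 CPM in knockout libraries. The part of adipocyte and brown fat marker levels in the receptors' own differences was not tested.

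**Figure D2:**
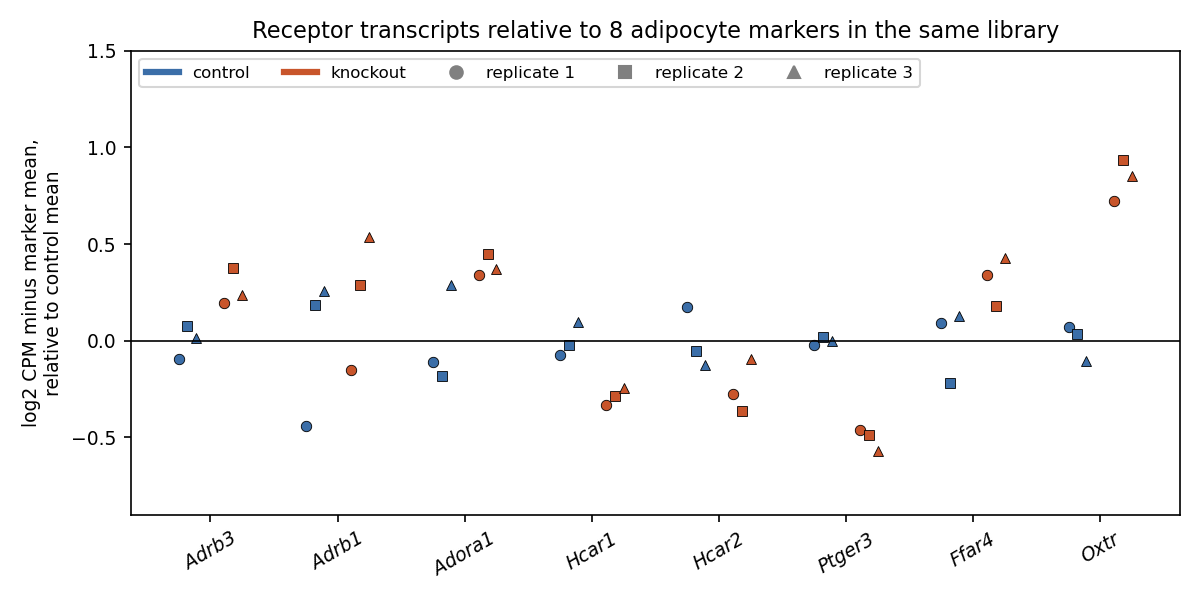
Each receptor's log2 CPM minus the mean log2 CPM of 8 adipocyte markers in the same library, drawn relative to the control mean, for control (blue) and knockout (orange) libraries. Oxtr lies 0.83 higher in knockout libraries on average, whereas Ptger3 lies 0.51 and Hcar1 0.28 lower.

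Close relatives of the receptors were examined next. Of 18 listed relatives, 9 were tested, 2 were called higher, 1 was called lower and 6 were not called, with a median log2 fold change of 0.16. Ffar2, a receptor for short-chain fatty acids, rose from 9.51 ± 0.42 to 13.7 ± 0.774 CPM (SD, n = 3; 1.44-fold, edgeR adjusted p = 4.77e-04). Adra1b, an alpha-1 adrenergic receptor, rose from 1.28 ± 0.217 to 1.96 ± 0.21 CPM (edgeR adjusted p = 0.0273), but missed the threshold in DESeq2 (0.0939) and when control replicate 1, control replicate 2, knockout replicate 2 or knockout replicate 3 was left out (0.0544 to 0.137). Ptger1, the EP1 receptor, fell 1.47-fold from 10.6 ± 0.879 to 7.23 ± 0.572 CPM (edgeR adjusted p = 0.00114). The value for Ptger1 is uncertain, since the strand setting of the counting is not stated and reads from the opposite strand may be included.

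The other relatives give the receptors a contrast in their own families. Adora2b and Adora2a, Gs-coupled adenosine receptors, differed by -0.041 (SE 0.13) and 0.35 (SE 0.15) on the log2 scale, neither called. Ptger4 differed by 0.11 (SE 0.093), and Avpr1a, a vasopressin receptor of the family of Oxtr, by 0.16 (SE 0.2), neither called. Avpr1b, Avpr2, Adra2c and Ffar3 had 0 counts in every library.

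**Figure D3:**
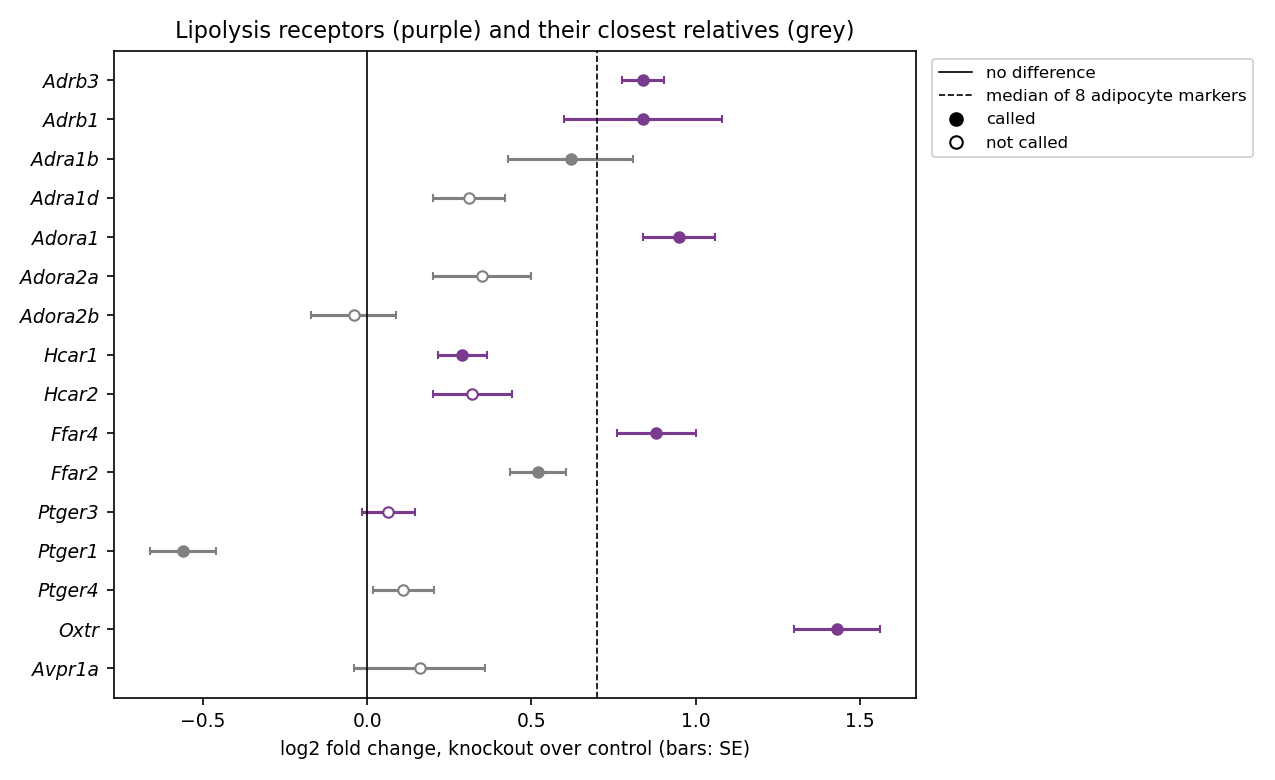
Log2 fold change of knockout over control, with SE bars, for 8 receptors (purple) and 8 of the 9 tested relatives (grey); filled points were called, and the dashed line is the adipocyte marker median of 0.70. Oxtr lies farthest right at 1.43, and of the relatives drawn Adra1b at 0.62, Ffar2 at 0.52 and Ptger1 at -0.56 were called.

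The share of each gene in the adenosine receptor family was also compared. Among adenosine receptors, Adora1 held 31.5%, 26.6% and 37.5% in control and 46.9%, 48.1% and 44.5% in knockout libraries. Adora2b led that family in every control library, whereas Adora1 led in every knockout library. Adora1 was also ahead of Adora2b in mean share when scaled to the longest transcript in knockout cells, at 49.1% against 35.4%, with 34.4% against 49.2% in control cells. Hcar1 kept 63.5% ± 3.77 and 62.8% ± 1.9 of the Hcar1 and Hcar2 sum.

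**Figure D4:**
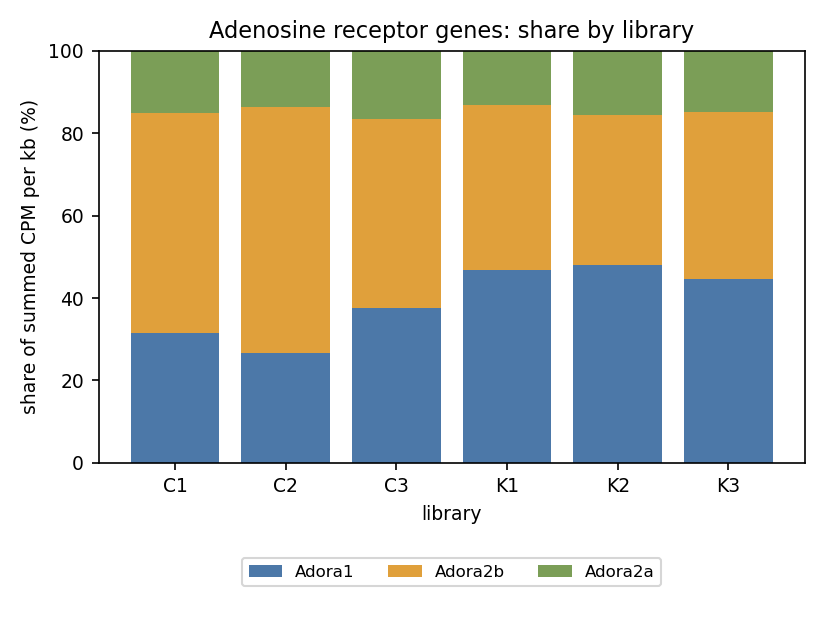
Share of the summed CPM per kb of exon held by each of 3 adenosine receptor genes, as stacked bars per library (C1 to C3 control, K1 to K3 knockout). The share of Adora1 was 31.9% in control and 46.5% in knockout cells on average, and that of Adora2b 53% and 39%.

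Other hormone receptors coupled to Gs were measured beside these. Of 17 listed, 8 were tested, 4 rose, 1 fell and 3 were not called (median log2 fold change 0.30). Tshr, the thyrotropin receptor, rose 1.75-fold from 13.5, 14.7 and 14.7 to 26.0, 23.3 and 25.8 CPM (edgeR adjusted p = 5.28e-06), close to Adrb3 in size. The melanocortin receptor gene Mc5r rose from 1.2 ± 0.217 to 2.48 ± 0.0493 CPM (edgeR adjusted p = 6.70e-04) and the secretin receptor gene Sctr from 0.758 ± 0.051 to 1.62 ± 0.431 CPM (edgeR adjusted p = 0.00493). Mc2r, the corticotropin receptor, rose 1.41-fold, but its call was lost in DESeq2, without control replicate 1 or 2, without knockout replicate 1 or 2 and without control replicate 3 and knockout replicate 2 together (adjusted p from 0.072 to 0.146). Ptgir, the prostacyclin receptor, fell 1.63-fold from 23.4, 22.1 and 22.9 to 13.7, 15.2 and 13.0 CPM (edgeR adjusted p = 1.98e-05).

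Of 8 other Gi-coupled receptors, 6 were tested, 1 rose, 2 fell and 3 were not called (median log2 fold change -0.092). Sucnr1, the succinate receptor, rose 1.96-fold from 1.29 ± 0.198 to 2.52 ± 0.388 CPM (edgeR adjusted p = 0.00193). The lysophospholipid receptor genes Lpar1 and S1pr1 fell 1.23-fold and 1.24-fold (edgeR adjusted p = 8.45e-04 and 0.0026). Of 12 other Gq-coupled receptors, 7 were tested, 0 rose, 2 fell and 5 were not called. These were the endothelin receptor gene Ednra (1.35-fold lower) and the thrombin receptor gene F2r (1.15-fold lower; edgeR adjusted p = 0.00583). Ednra (edgeR adjusted p = 0.0107) was not called without knockout replicate 3 (0.056).

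Downstream of the receptors, G protein genes were called in both directions. Among 24 tested subunit genes 3 were called higher, 5 lower and 16 in neither direction, with a median log2 fold change of 0.017. Without control replicate 3 and knockout replicate 2, 11 were called. The Gs alpha gene Gnas was at 648 ± 30.5 and 645 ± 56.5 CPM (log2 fold change -0.0057, SE 0.062), and Gnaq, the Gq alpha gene, at 54.8 ± 0.668 and 56.0 ± 2.3 CPM. Of the Gi alpha genes, Gnai1 rose 1.51-fold from 17.6 ± 1.18 to 26.6 ± 1.67 CPM (edgeR adjusted p = 7.00e-05), while the far more abundant Gnai2 (230 ± 4.48 and 216 ± 7.3 CPM) and Gnai3 (284 ± 17.4 and 254 ± 14.3 CPM) were not called. Gnao1 rose 1.36-fold, not called without control replicate 1 or knockout replicate 3 (edgeR adjusted p of 0.0651 and 0.0524), and Gng12 rose 1.23-fold. Gna13, Gnb4, Gng2 and Gng11 fell by 1.17-fold to 1.3-fold, Gng11 not being called without control replicate 1 or knockout replicate 3 (0.064 and 0.0547). The low gene Gng4, chosen after its values were seen, was the fifth to fall (0.593 ± 0.15 to 0.194 ± 0.0285 CPM).

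Receptor kinases, arrestins and RGS proteins end receptor signalling. Among the 17 such genes tested, 3 were called higher, 3 lower and 11 in neither direction. Rgs4, a brake on Gi and Gq signalling, rose 2.14-fold from 5.78, 4.14 and 5.91 CPM to 12.3, 9.78 and 11.8 CPM (log2 fold change 1.10, SE 0.14; edgeR adjusted p = 7.81e-05). Arrb2, encoding beta-arrestin-2, fell 1.27-fold (edgeR adjusted p = 0.00296). Rgs5 rose 1.61-fold and Grk5 by 0.22 on the log2 scale, while Rgs10 fell 1.21-fold and Grk6 1.17-fold. Calls of Rgs5, Grk5 and Rgs10 were each lost without control replicate 1 or 2 and in further fits (highest adjusted p 0.103, 0.0949 and 0.125), and that of Grk6 without knockout replicate 3 (0.0511). Without control replicate 1, or without knockout replicate 3, 3 of this list were called.

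Genes that supply or clear the receptors' ligands were read beside the receptors. Among 20 tested ones, 6 were called higher, 4 lower and 10 in neither direction. For adenosine, the ligand of Adora1, the cell-surface enzymes that make it from ATP and AMP fell: Entpd1 from 3.28, 2.59 and 2.75 to 1.2, 1.21 and 1.08 CPM (2.46-fold lower; edgeR adjusted p = 8.91e-05), and Nt5e from 8.25, 6.73 and 5.84 to 4.35, 3.76 and 4.11 CPM (1.72-fold lower; edgeR adjusted p = 9.77e-04). Neither overlapped between the groups. The adenosine transporter gene Slc29a1 fell 1.27-fold, and the adenosine kinase gene Adk rose 1.11-fold, with its call lost without any 1 of control replicates 1, 2 and 3 or knockout replicates 1 and 3 (edgeR adjusted p up to 0.126). Ada, adenosine deaminase, was not called.

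For prostaglandin E2, the ligand of Ptger3, the cyclooxygenase gene Ptgs1 fell 1.23-fold, whereas the terminal synthase genes Ptges and Ptges2 rose 1.51-fold and 1.24-fold (edgeR adjusted p = 4.51e-06 and 0.00188). Ptgs2 (12.7 ± 1.82 and 17.4 ± 3.86 CPM) did not pass the threshold. For catecholamines, the breakdown gene Maob rose 1.74-fold, and Slc22a3, a catecholamine transporter gene chosen after its values were seen, rose from 0.423 ± 0.0573 to 0.975 ± 0.159 CPM. The lactate genes Ldha, Slc16a1 and Slc16a3 were not called. Oxytocin itself (Oxt) had at most 1 count in any library, and Lnpep, whose product degrades oxytocin, differed by 0.07 (SE 0.058) on the log2 scale and was not called.

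**Figure D5:**
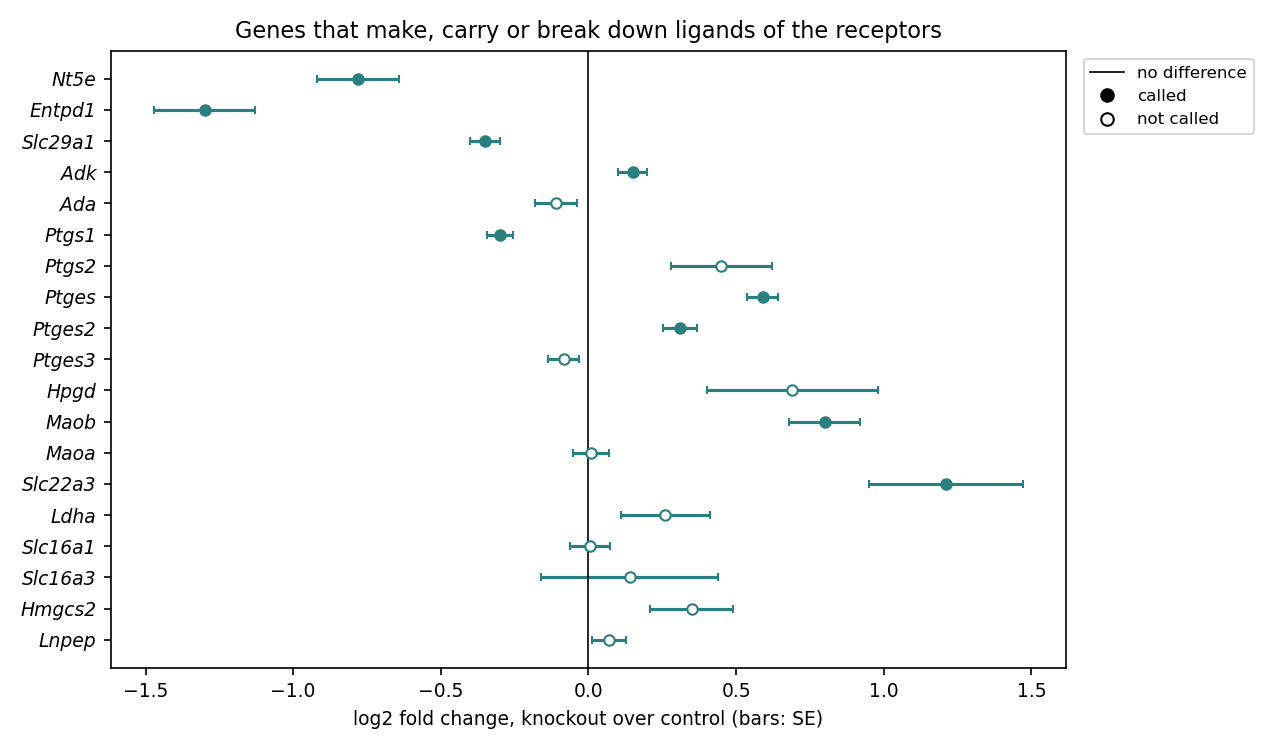
Log2 fold change of knockout over control, with SE bars, for 19 of the 20 tested genes that make, carry or break down ligands of the receptors; filled points were called. Entpd1 at -1.30 and Nt5e at -0.78 lie farthest left, and Slc22a3 at 1.21 and Maob at 0.80 farthest right.

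Genes of cAMP turnover and of the lipase machinery were read last. Among 12 tested genes 10 were called higher, 0 lower and 2 (Adcy3 and Adcy6) in neither direction, with a median log2 fold change of 0.60. The adenylyl cyclase gene Adcy5 rose from 15.3, 15.2 and 17.8 to 29.6, 32.9 and 31.9 CPM (1.96-fold; edgeR adjusted p = 1.79e-06) and the lipase genes Pnpla2 and Lipe 1.95-fold and 1.86-fold. The phosphodiesterase gene Pde3b, which lowers cAMP, and G0s2, an inhibitor of ATGL, were among those that rose, 1.35-fold and 1.52-fold; both were chosen after their values were seen.

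The genes most like each receptor were sought by Pearson correlation of log2 CPM over the 6 libraries among 10550 more abundant genes. For receptors that differed between the groups, these correlations describe in part a group difference shared by many genes. All libraries also share their scaling. The genes were picked as the highest of 10550 over only 6 libraries, so high values follow from the picking and support nothing. The within-group values come from the same 6 libraries and are no separate check. Oxtr was followed most closely by Pcolce2 (0.998), Kcne4 (0.997) and the resistin gene Retn (0.997). Within groups, after each group mean was taken off, their correlations with Oxtr were 0.852, 0.639 and 0.512. Adrb3 was nearest to Dgat2, a triglyceride synthesis gene (0.999, and 0.961 within groups), and to Ppp1r1a and Itprid2. Ffar4 was nearest to Rgs4 (0.999, and 0.992 within groups), Tfr2 and Lamb3. Adora1 was nearest to Aldh9a1, Elmod3 and Enpp1, and Adrb1 to Glyctk, Lrba and Dnm1l. Usp8 and Qk were among the 3 nearest to Hcar1. Them4 (0.993, and 0.992 within groups) and Rab3gap1 (0.970, and 0.961 within groups) were among the 3 nearest to Ptger3. Ptger3 barely differed between the groups, so its within-group correlations nearly repeat those by which its nearest genes were picked. Hcar2 was nearest to Hint2, Celf4 and Vps36.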

How the data were processed

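Raw read counts per Ensembl gene were deposited for 6 libraries of total RNA depleted of ribosomal RNA, made with a stranded kit per the labels' protocols. The build GRCm38 and the tools featureCounts 1.5.1, STAR 2.5.2b and DESeq2 1.16.0 are listed in the submitters' processing notes, without roles. Annotation release, strand setting and treatment of multimapping reads: not given in the sources used here. Columns were assigned by the library number in the titles and groups by the genotype label; no column was left over (0). Symbols were matched by Ensembl identifier for 49326 of 49671 genes, and coordinates and exon lengths come from GENCODE M21 (GRCm38).

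Knockout and control were compared in R 4.3.3 by the quasi-likelihood test of edgeR 4.0.16 (robust, TMM, filterByExpr, group as the only term, Benjamini-Hochberg over all 14946 tested genes). SE is the log2 fold change over the square root of F. The common biological coefficient of variation was 5.91%. CPM per kb uses the union of exons. The script was tested on simulated data. Alternatives were other scalings, filters, DESeq2 1.42.0, limma-voom (limma 3.58.1), an adjusted p under 0.01, the longest transcript as length, and leaving out each library. A further fit without both control replicate 3 and knockout replicate 2 was added after seeing the data.

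The receptors and all gene lists were chosen with earlier results of these data known. Named beside the receptors were called list genes averaging at least 0 on the log2 CPM scale, up to 5 per list and direction, and for each receptor the 3 genes of highest correlation above an average log2 CPM of 2. Some genes that met this rule are not reported here. Other genes named were chosen after their values were seen. Libraries within a group differed beyond sampling noise (chi-square per degree of freedom of 4.32 or more), so none was merged.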

Additional observations from a re-analysis of the deposited data

How the results depend on the processing

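The 6 receptor calls held under the other scalings, the other filters, DESeq2, limma-voom and without control replicate 3 and knockout replicate 2 together. With 1 library left out the number of called receptors ran from 4 to 7, as Adrb1 and Hcar1 lost and Hcar2 gained its call; at an adjusted p under 0.01 it was 4. Of 112 refitted receptor values, 106 kept their side of the threshold, 5 lost and 1 gained a call. No receptor reversed in any fit run, nor did any list gene named by the rule above. Other named genes were not followed across the fits. Called genes in all were 3346, between 2145 (without control replicate 1) and 3475 with 1 library left out, 2178 without knockout replicate 3, 3957 without control replicate 3 and knockout replicate 2 together, and 1934 at an adjusted p under 0.01. Without those same libraries, 12 rather than 10 ligand genes and 11 rather than 10 genes of cAMP turnover and lipases were called. Scaled to the longest transcript, control levels became 6.77 CPM per kb for Adrb3 and 3.67 for Ptger3, from 5.61 and 2.31. No paired analysis was possible because the labels give the libraries no shared replicate numbers. Counts of under 60 per library limit Adrb1, and counts of at most 10 limit Adra2a.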
